A study of Mus musculus with 41 samples.

Results

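Matrix metalloproteinases, ADAMTS proteases and their tissue inhibitors were examined in mammary tumors that arose from transplanted Trp53-null duct tissue. The members were all genes on the array named as Mmp, Adamts or Timp with a number, 46 of 30175 genes, of which 23 are Mmp, 19 Adamts and 4 Timp genes, measured by 66 probes. The probe with the highest mean signal stood for its gene, and 40 members passed the filter on dim probes, 19 Mmp, 17 Adamts and 4 Timp genes, among 24557 genes tested in all. The 6 members that did not pass were Adamts19, Adamts20, Mmp1a, Mmp16, Mmp20 and Mmp21, and no level is given for them.

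RNA of 41 tumors was hybridized, 1 tumor per 2-color array, with Universal Mouse Reference RNA, a pool made from mouse cell lines. The tumors grew from duct fragments of Trp53-null BALB/c donors in the cleared fat pads of wild-type female BALB/c hosts, so that all groups share the loss of Trp53 in the transplant and a wild-type stroma. Hosts were fed a low fat diet (LFD, 8 epithelial and 3 spindle cell tumors), a diet rich in animal fat (HFD, 8 and 3), HFD in puberty followed by LFD (HFD-LFD, 7 and 3) or LFD in puberty followed by HFD (LFD-HFD, 6 and 3). The labels also divide tumors into early and late onset, 14 and 15 among the 29 epithelial tumors, whose morphology the labels call variable, and 3 and 9 among the 12 spindle cell tumors.

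Matrix metalloproteinases are zinc enzymes that cleave collagens, gelatins, proteoglycans and other proteins outside the cell, and most are secreted as inactive proenzymes. ADAMTS enzymes are related secreted proteases with thrombospondin repeats, some of which trim procollagens and others proteoglycans such as aggrecan and versican. The Timp proteins bind the active site of these enzymes and block it, and in breast tumors much of the protease RNA is made by stromal cells as well as by tumor cells.

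The values are log2 ratios of tumor over reference, taken as Cy5 over Cy3. The sample labels put the tumor in Cy5, whereas the study's methods put the reference there, so the signs below are opposite to those that the methods would give. The channels were checked with Y-linked genes, which female tumors lack. The log2 ratio of Ddx3y lay between -4.60 and -0.87 and that of Eif2s3y between -4.28 and -0.66, so Cy3 was the brighter channel for both genes on each of the 41 arrays. In the tumor channel, 52.4% to 94.9% of an array's spots lay well above background. The spindle cell arrays were all read on another scanner and in another session than the epithelial ones, which cannot be told apart from histology. The arrays of 42L4B, 60L and M86R had r = 0.855, 0.65 and 0.823 over genes with their own columns of the authors' matrix, below all other arrays of undisputed label (0.961 or more), and 22% of the spots of 60L were outliers. The arrays of the spindle cell tumors M32L, M76R and M86R had narrow ratios, with a standard deviation over genes from 0.83 to 1.07 against 1.25 to 1.36 in the other spindle cell arrays. In 3 HFD tumors, 40R4A, 57R and 65R, the labels of the scanner files and of the authors' matrix differ, and those of the scanner files were used. In tumor RNA, fewer cells of a type and less RNA per cell cannot be told apart. The labels do not say whether tumors that share a number came from 1 mouse, and p-values measure the spread between these tumors.

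Of the 23 Mmp genes, 10 lie together on chromosome 9, where their probes fall between 7282762 and 7697700 (mm9), and 8 of these were tested. The cluster holds the genes grouped here as collagenases, the stromelysins Mmp3 and Mmp10, matrilysin (Mmp7) and macrophage elastase (Mmp12). In RefSeq's table of start sites (GRCm38.p6), which had a promoter for 32 of the 46 members, the letters of the AP-1 element, TGAGTCA or TGACTCA, which are each other's reverse complement, stood within 250 bases before the start of 7 members (21.9%). All 7 were among the 10 cluster genes, and 5.16% of all genes in the table had such a match. A match is a description of these letters and not of binding. Shown are 110 bases before the start of the 4 cluster genes on which the results below turn, 5′ to 3′ on the gene's strand with the match in capitals. Mmp3 lies at chr9:7445712-7445821, Mmp10 at chr9:7502232-7502341, Mmp13 at chr9:7272404-7272513 and Mmp1b, on the minus strand, at chr9:7388027-7388136.
Mmp3: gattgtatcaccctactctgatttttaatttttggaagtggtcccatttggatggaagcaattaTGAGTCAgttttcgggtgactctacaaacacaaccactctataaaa
Mmp10: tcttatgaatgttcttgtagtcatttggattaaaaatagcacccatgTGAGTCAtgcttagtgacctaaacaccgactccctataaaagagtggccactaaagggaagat
Mmp13: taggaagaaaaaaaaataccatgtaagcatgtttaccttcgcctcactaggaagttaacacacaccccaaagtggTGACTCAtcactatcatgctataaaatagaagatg
Mmp1b: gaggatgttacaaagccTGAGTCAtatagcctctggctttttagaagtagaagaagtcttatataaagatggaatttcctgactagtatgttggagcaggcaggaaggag
The match stood 46 bases before the start in Mmp3, 63 in Mmp10, 35 in Mmp13 and 93 in Mmp1b. Mmp7, Mmp12 and Mmp1a held it as well, and it was not found in the windows of the cluster genes Mmp8, Mmp20 and Mmp27.

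The first comparison asked which members differ between spindle cell and epithelial tumors. At an adjusted p under 0.05, spindle cell tumors had higher values for 9 of the 40 members and lower values for 1, against 15.1% of all genes (6.99% higher and 8.14% lower; limma with Benjamini-Hochberg adjustment over 24557 genes). Mmp2 and Mmp14, the collagen-degrading pair in which the membrane-bound Mmp14 activates pro-Mmp2, were both higher, together with the procollagen-trimming Adamts2 and Adamts14, and Timp3, an inhibitor held in the matrix, was lower. The median log2 difference over the 40 members was 0.32, against -0.03 over all genes tested, and 27 of 40 members had a positive difference, against 10650 of 24557 genes.

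Mmp2, gelatinase A, had log2 ratios of -2.77 (13L), a median of -1.66 and -0.09 (66L) in the epithelial tumors, and of -1.75 (M18L), 0.15 and 1.02 (M76R) in the spindle cell tumors. Of the 12 spindle cell tumors, 7 lay above every epithelial tumor and 11 above the epithelial median, and the groups overlapped. The epithelial mean was -1.55 ± 0.75 (SD, n = 28) and the spindle cell mean -0.13 ± 0.91 (SD, n = 12), so they differed by 1.42 on the log2 scale or 2.68-fold (standard error 0.27, limma, adjusted p = 0.000244).

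Mmp14, the membrane-type enzyme, ranged from -2.43 (13L) through a median of -0.73 to 0.15 (42L4B) in epithelial tumors and from -0.86 (M128L) through 0.30 to 1.07 (M33R) in spindle cell tumors. Again 7 spindle cell tumors lay above all epithelial tumors. The log2 difference was 0.97 or 1.97-fold (standard error 0.21, limma, adjusted p = 0.000886). The other 4 membrane-type genes tested, Mmp15, Mmp17, Mmp24 and Mmp25, were not called, with differences between -0.20 and 0.30.

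Among the genes grouped here as collagenases by name, Mmp1b was called. Its ratios ran from -0.29 (60L) through 0.10 to 0.97 (62L) in epithelial tumors and from -0.15 (M128L) through 0.42 to 5.79 (M84R) in spindle cell tumors. The difference came from few tumors, since 5 of the 12 lay above every epithelial tumor, M84R, M118R, M33R, M129L and M63L, and the probe was well above background on 15 of 29 epithelial and 7 of 12 spindle cell arrays. The epithelial mean was 0.19 ± 0.30 (SD, n = 29) and the spindle cell mean 1.72 ± 2.16 (SD, n = 12), and they differed by 1.54 on the log2 scale (standard error 0.39, limma, adjusted p = 0.00554).

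Mmp13 and Mmp9, the members with the largest differences, were not called here, but were called under 5 and 9 of the alternatives given below. Mmp13, collagenase 3, ran from -3.85 (90R) through -0.27 to 2.78 (40R4A) in epithelial and from -1.62 (M128L) through 1.55 to 5.52 (M84R) in spindle cell tumors, and the means differed by 2.04 on the log2 scale (standard error 0.75, limma, adjusted p = 0.0575). Mmp9, gelatinase B, differed by 1.58 (limma, adjusted p = 0.053) and Mmp3, stromelysin 1, by 1.43 (limma, adjusted p = 0.0748). The same spindle cell tumors were high in all 3: M84R, M33R and M118R lay above every epithelial tumor for Mmp13, Mmp9, Mmp3 and Mmp1b. Mmp10, stromelysin 2, differed by 0.80, Mmp11, stromelysin 3, by 0.44 and Mmp12 by 0.47, with adjusted p of 0.265, 0.169 and 0.33 in limma. Neutrophil collagenase, Mmp8, differed by 0.01 (95% interval -0.50 to 0.53) and matrilysin, Mmp7, by -0.24 (-1.07 to 0.59).

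**Figure D1:**
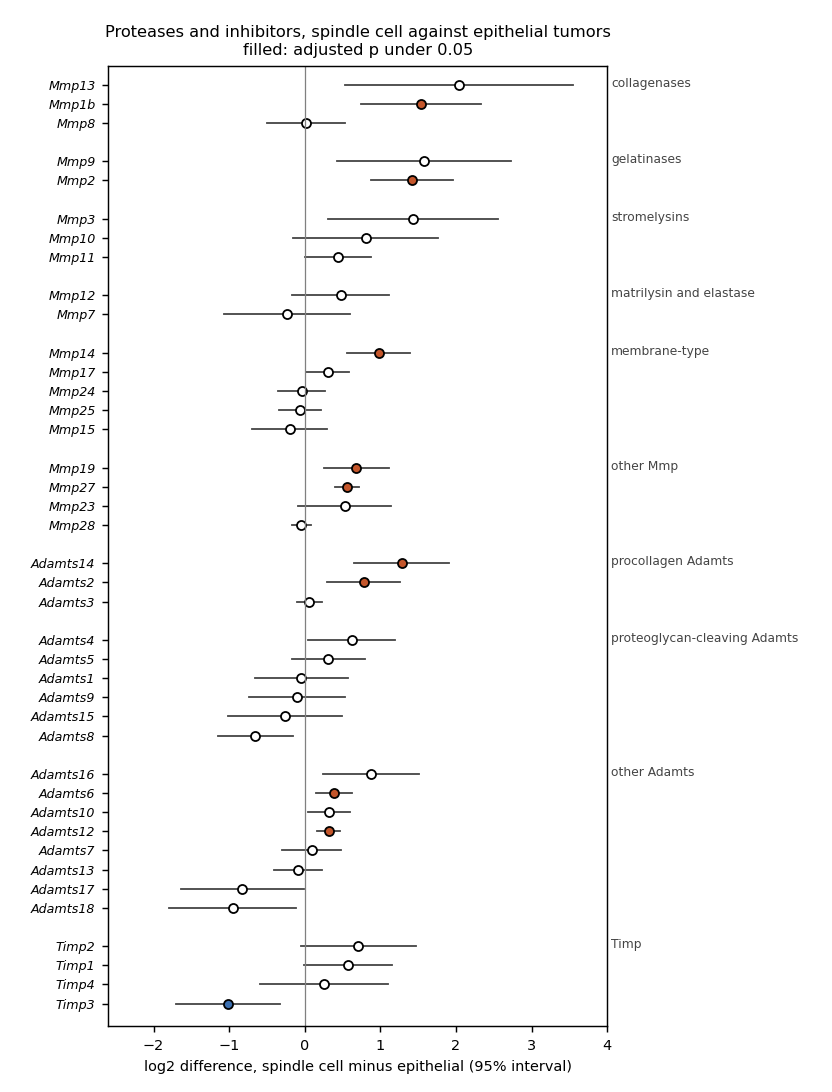
The log2 difference between spindle cell and epithelial tumors (x axis, mean of spindle cell minus mean of epithelial) for the 40 members tested, grouped by role, with 95% intervals from limma. Filled points passed an adjusted p of 0.05, 9 to the right of 0 and Timp3 to the left.

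Mmp19, which cleaves basement membrane proteins, was higher by 0.68 (standard error 0.21, limma, adjusted p = 0.0224), between -0.56 and 1.63 in the epithelial group and between -0.58 and 3.09 in the spindle cell group, with 1 tumor, M76R, above all epithelial ones. Mmp27 had the smallest adjusted p of all members, at a difference of 0.56 on the log2 scale (standard error 0.08, limma, adjusted p = 3.53e-06). Its ratios ran from -0.07 (60L) through 0.15 to 0.48 (31R) in epithelial tumors and from 0.05 (M32L) through 0.77 to 1.42 (M54R) in spindle cell tumors, 10 of which lay above every epithelial tumor. When the channels were normalized separately, the tumor channel of Mmp27 differed by 0.19 and the reference channel, which holds the same RNA on every array, by -0.37. The part of scan session in this was not tested. For Mmp2 the channels differed by 1.19 and -0.23, for Mmp14 by 0.59 and -0.39, for Mmp1b by 1.30 and -0.24, and for Timp3 by -1.03 and -0.01. The largest reference difference among the tested members was that of Mmp10, whose tumor and reference channels differed by 2.33 and 1.53. For Mmp3 the channels differed by 2.04 and 0.61. In both genes the reference moved with the tumor channel, and the cause was not tested.

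The procollagen proteases Adamts2, Adamts3 and Adamts14 remove the amino-terminal propeptide of fibrillar collagens. Adamts14 ran from -3.55 (60L) through -1.67 to 0.01 (13L) in epithelial tumors and from -2.21 (M128L) through -0.56 to 1.30 (M63L) in spindle cell tumors. Of the latter, 3 lay above every epithelial tumor and 10 above the epithelial median. The log2 difference was 1.28 or 2.43-fold (standard error 0.31, limma, adjusted p = 0.0036) on this probe and 0.11 on the other Adamts14 probe, so the probes disagreed in size. Adamts2 was higher by 0.78 (standard error 0.24, limma, adjusted p = 0.0214) and by 0.59 on its other probe. Adamts3 differed by 0.06 (95% interval -0.11 to 0.22).

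None of the 6 proteoglycan-cleaving Adamts genes tested was called. The aggrecanases Adamts4 and Adamts5 differed by 0.62 and 0.31 (limma, adjusted p = 0.139 and 0.414), and Adamts1 by -0.05, with 6 spindle cell tumors on each side of its epithelial median. Adamts8 differed by -0.65 (limma, adjusted p = 0.0661), with 4 spindle cell tumors below every epithelial one. Among the other Adamts genes, the smaller differences of Adamts6, 0.39 (limma, adjusted p = 0.0188), and Adamts12, 0.32 (limma, adjusted p = 0.00383), passed. All 12 spindle cell tumors lay above the epithelial median of Adamts12, whose ratios lay between -0.33 and 0.25 in the epithelial group and between 0.02 and 0.92 in the spindle cell group. Adamts16 differed by 0.88 (limma, adjusted p = 0.0534), and Adamts18, Adamts17, Adamts10, Adamts7 and Adamts13 between -0.96 and 0.32 without a call. The probes disagreed in sign for Adamts17 (-0.83 and 1.03), Adamts8 (-0.65 and 0.26), Adamts4 (0.62 and -0.21) and Adamts10 (0.32 and -0.10).

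Of the inhibitors, Timp3 ran from -2.13 (13L) through 0.13 to 1.89 in epithelial tumors and from -2.99 (M63L) through -1.20 to 0.72 (M76R) in spindle cell tumors. The groups overlapped widely, with 11 of 12 spindle cell tumors below the epithelial median and 1 below every epithelial tumor. The log2 difference was -1.02 (standard error 0.34, limma, adjusted p = 0.0353). With slide as a random block, with arrays centered on their median in place of loess or in late tumors alone it was not called, with differences of -1.0, -0.61 and -1.28. Timp1 and Timp2 differed by 0.57 and 0.71 (limma, adjusted p = 0.185 and 0.21). Timp4 differed by 0.25 (limma, adjusted p = 0.733), with M76R at 4.13, and without M32L, M76R and M86R the difference was -0.71 and was called (adjusted p = 0.0227; adjusted p from 0.0227 to 0.996 over the alternatives).

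**Figure D2:**
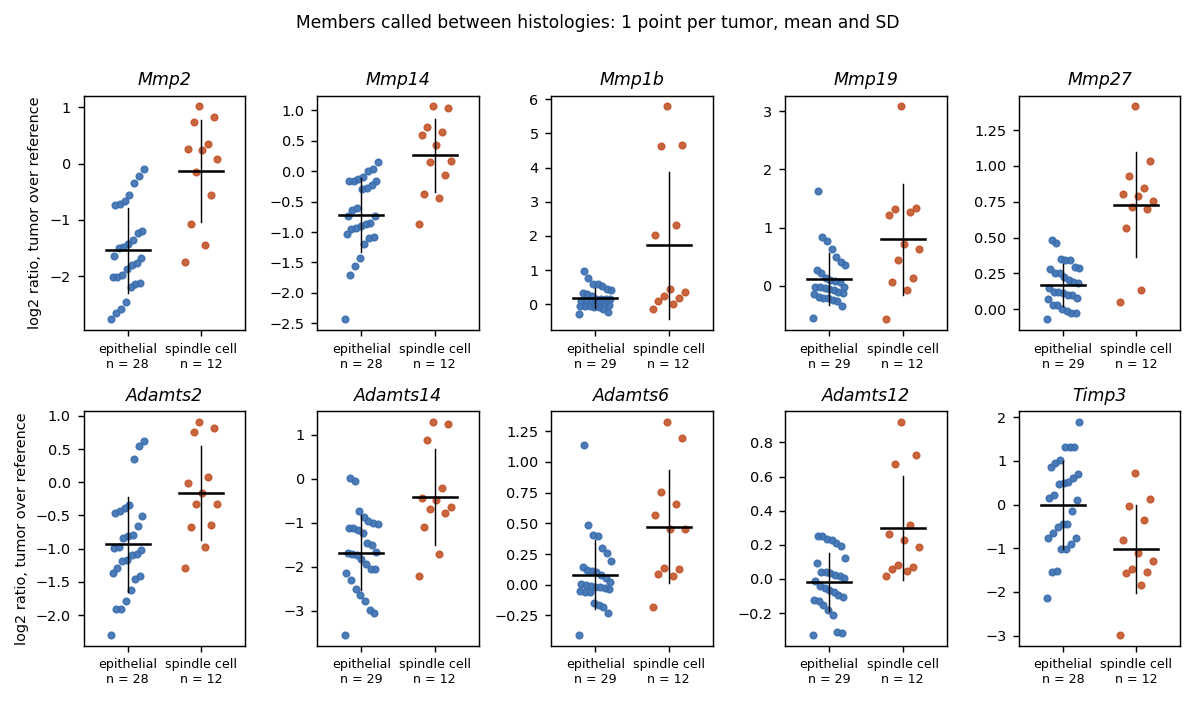
The log2 ratio of tumor over reference (y axis) of the 10 members called between histologies, 1 point per tumor with the group mean and SD. In Mmp2 and Mmp14, 7 of 12 spindle cell tumors sit above every epithelial tumor, in Mmp1b the high values belong to 5 tumors, and in Timp3 the groups overlap widely.

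Mmp2, Mmp14, Mmp27 and Adamts14 were called under all 14 alternatives, and Mmp1b under 13. Of the members not called above, those called under most of these alternatives were Mmp9 (9), Adamts16 (8), Mmp3 (7) and Mmp13 (5). The difference had the same sign within each of the 4 regimens for 9 of the 10 called members, with 0.25 to 2.44 for Mmp2, 0.50 to 1.38 for Mmp14 and -1.92 to -0.07 for Timp3. The exception was Adamts2, which ranged from -0.22 to 1.36. The spindle cell tumor with the most members above all epithelial tumors was M129L, with 16 of 40, followed by M33R with 12 and M118R and M84R with 10 each, whereas M18L had 1. The share of all genes above the epithelial range was not computed per tumor, so these counts do not set the members apart from other genes.

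Among other genes of the pathway, the plasminogen activator system and protease regulators had 3 of 15 genes higher and 1 lower. Lrp1, the endocytic receptor that clears proteases, was higher by 1.29, Bsg, the metalloproteinase inducer basigin, by 0.87 and Plaur, the urokinase receptor, by 0.82, and Reck, a membrane-anchored protease inhibitor, was lower, at -0.86 (limma, adjusted p = 0.00166, 0.00166, 0.0282 and 0.00403). Of 21 matrix substrates 7 were higher and 0 lower, among them the proteoglycan Bgn by 1.84 and the type I collagen chains Col1a2 by 1.39 and Col1a1 by 1.36. Of 11 ADAM sheddases Adam19 (0.89) and Adam12 (0.64) were higher, and of 6 ADAMTS-like proteins, which lack a protease domain, Adamtsl2 (0.75).

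Cell type markers also moved with histology. Of 8 fibroblast markers, which the mesenchymal tumor cells may also express, Vim (1.19) and Pdgfrb (0.93) were higher, and the mean log2 ratio over the list lay between -2.74 and -0.24 in the epithelial group and between -2.74 and 0.83 in the spindle cell group. Of 5 endothelial markers Cdh5, Pecam1 and Kdr were higher, of 7 macrophage markers Cd163 was higher, and of 8 neutrophil markers Csf3r was lower. Of 9 epithelial markers 0 were called and all 9 had a negative difference, with a median of -0.71 (4 of 9 at an unadjusted p under 0.05). Their part in the protease differences was not tested.

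The members varied widely among the epithelial tumors themselves. The median SD over the 29 tumors was 0.71 for the members and 0.40 for all genes, and 33 of 40 members lay above the latter. Mmp13 had the widest spread, with an SD of 2.12, which ranked 10 among 24557 genes, followed by Mmp10 (1.44), Mmp3 (1.41), Mmp7 (1.37) and Mmp9 (1.30). Mmp27, Adamts3, Mmp28 and Adamts12 had SDs of 0.15 to 0.17 on dim probes, where background narrows the ratio.

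The stromelysin Mmp3 varied together with Mmp10 and Mmp13, which lie in the same cluster on chromosome 9 but not next to it. These were the only cluster pairs among the 10 pairs examined over epithelial tumors. Of these 10, 8 had an adjusted p under 0.05 by Pearson's r and 7 by Spearman's rho (permutation test, two-sided). Mmp3 and Mmp10 gave r = 0.755 and rho = 0.83 (n = 29) and Mmp3 and Mmp13 r = 0.736 and rho = 0.729 (n = 28). The permutation p of both r values was 1e-05, the smallest that the permutations can give (adjusted p = 5e-05). Without 60L and 62L, the tumors farthest from the median, r was 0.832 and 0.753, and with values centered on slide means 0.621 and 0.655.

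Other pairs set a protease against its inhibitor, activator or likely source. Mmp2 gave r = 0.595 and rho = 0.617 with the mean of 8 fibroblast markers (permutation, p = 0.00084 and 0.00065, adjusted p = 0.0021 and 0.00162), 0.728 without 42L4B and 66L and 0.658 centered on slides. Mmp8 gave r = 0.593 and rho = 0.694 with 8 neutrophil markers (permutation, p = 0.00075 and 2e-05, adjusted p = 0.0021 and 6.67e-05), 0.494 without the 2 tumors farthest from the median and 0.617 centered on slides. Mmp9 gave r = 0.576 and rho = 0.53 with the same markers (permutation, p = 0.00118 and 0.00374, adjusted p = 0.00236 and 0.00748), 0.589 without 62L and 66L and 0.422 centered on slides. These relations kept an adjusted p under 0.05 in those settings. The Mmp8 probe was well above background on 21 of the 29 epithelial arrays, and 6 of the 8 neutrophil markers on all of them. With the scanner software's processed signals, Mmp9 and neutrophil markers gave r = 0.403 and rho = 0.262 (permutation, p = 0.03 and 0.169, adjusted p = 0.0375 and 0.188), so that rho no longer passed.

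The pairs of enzyme with inhibitor or activator had r between 0.24 and 0.49. Mmp14 and Mmp2 gave r = 0.471 and rho = 0.418 (permutation, p = 0.0134 and 0.0322, adjusted p = 0.0191 and 0.046), but 0.358 without the LFD tumor 13L and the HFD-LFD tumor of lowest Mmp14 and 0.267 centered on slides, so the relation did not hold without those tumors or within slides. Mmp9 and Timp1 gave r = 0.49 and rho = 0.412 (permutation, p = 0.00798 and 0.0292, adjusted p = 0.0133 and 0.046), 0.369 without 62L and 66L and 0.267 centered on slides. Mmp12 and 7 macrophage markers gave r = 0.397 and rho = 0.266 (permutation, p = 0.0316 and 0.159, adjusted p = 0.0395 and 0.177), 0.269 without 62L and 82L and 0.525 centered on slides. Timp2, which bridges Mmp14 and pro-Mmp2, gave r = 0.341 and rho = 0.38 with Mmp2 (permutation, p = 0.0771 and 0.0471, adjusted p = 0.0857 and 0.0589) and r = 0.24 and rho = 0.19 with Mmp14 (permutation, p = 0.229 and 0.341, adjusted p = 0.229 and 0.341). Without the 2 farthest tumors r was 0.474 for Timp2 and Mmp2 (permutation, adjusted p = 0.0235) and centered on slides 0.522 (permutation, adjusted p = 0.00735), so that this pair passed in both settings, whereas r of Timp2 and Mmp14 was 0.085 and 0.252.

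**Figure D3:**
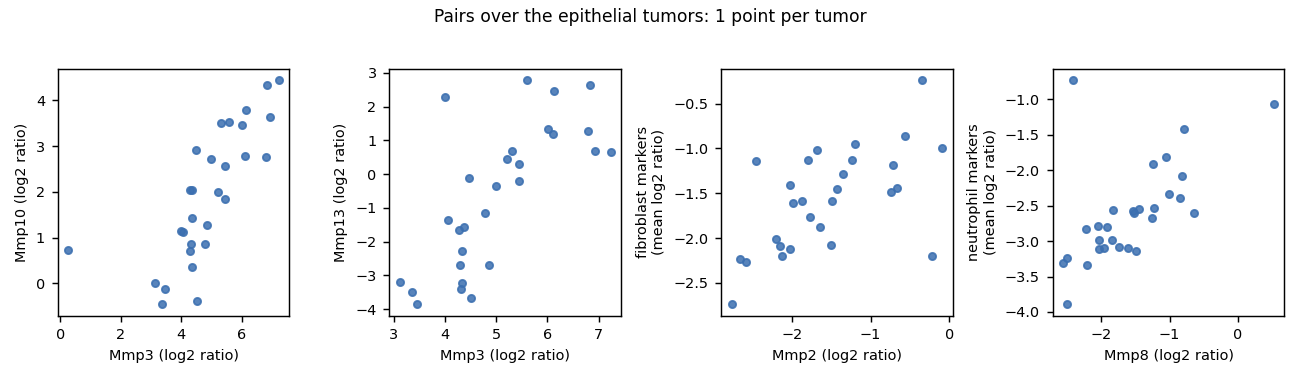
Pairs of measures over the epithelial tumors, 1 point per tumor, with log2 ratios or the mean log2 ratio of a marker list on the axes. Mmp10 and Mmp13 rise with Mmp3 (r = 0.755 and 0.736), Mmp2 with fibroblast markers (0.595) and Mmp8 with neutrophil markers (0.593).

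Early and late epithelial tumors were compared next. Limma called 0 members at an adjusted p under 0.10, against 0.00407% of all genes, and 3 of 40 had an unadjusted p under 0.05, against 8.57% of all genes. The SAM statistic also called 0, against 0.485% of all genes. The 3 members of smallest p were Mmp13, Adamts4 and Timp1, all with higher means in early tumors. Mmp13 ran from -3.47 through 0.43 to 2.78 (40R4A) in early and from -3.85 (90R) through -1.64 to 2.46 (66L) in late tumors. The groups overlapped over nearly their whole range, and the log2 difference was 1.79 (standard error 0.71, limma, adjusted p = 0.487). Adamts4 differed by 0.65 (limma, adjusted p = 0.55) and Timp1 by 0.61 (limma, adjusted p = 0.565). Mmp2 differed by -0.11 (95% interval -0.68 to 0.46), Mmp14 by 0.34 (-0.11 to 0.79), Mmp9 by 0.55 (-0.40 to 1.49) and Mmp3 by 0.09 (-0.95 to 1.13), and Timp2, Timp3 and Timp4 by -0.36, -0.45 and -0.34.

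Among the 12 spindle cell tumors, 3 early against 9 late, 0 members were called, against 0% of all genes, and 2 of 40 members had an unadjusted p under 0.05, against 1.28%. Adamts16 was 0.88 in M86R, 1.71 in M84R and 2.45 in M129L among the early tumors, and ran from -0.99 (M63L) through -0.36 to 2.24 (M33R) among the late ones, a difference of 1.81 (limma, adjusted p = 1). Only M33R among the late tumors reached the early range. Mmp8 differed by 1.18 and Mmp14 by 0.73 (limma, adjusted p = 1 for both), and Mmp13 by 2.37 with a 95% interval from -0.74 to 5.48. Leaving out each early tumor in turn also gave 0 calls.

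The study compared HFD in puberty with HFD in adult life, and tumors were first grouped by whether the host had HFD in puberty. Over all 41 tumors, 21 with and 20 without pubertal HFD, 0 members were called at an adjusted p under 0.10, against 0.00814% of all genes, and 3 of 40 had an unadjusted p under 0.05, against 6.48%. The smallest p belonged to Adamts10 (0.41; limma, adjusted p = 0.363), Adamts3 (0.17; adjusted p = 0.679) and Adamts6 (0.26; adjusted p = 0.697). Mmp2 differed by 0.15 (95% interval -0.49 to 0.80), Mmp14 by 0.33 (-0.14 to 0.79), Mmp9 by 0.22 (-0.92 to 1.36) and Timp1 by 0.33 (-0.22 to 0.88).

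In the 29 epithelial tumors alone, 15 with and 14 without pubertal HFD, 1 member was called, with a higher value, against 1.44% of all genes (1.01% higher), and 8 of 40 had an unadjusted p under 0.05, against 16.1%. It was Adamts10, a protease that binds fibrillin microfibrils. Its ratios ran from -1.75 (17R) through -1.08 to -0.61 without and from -1.12 (66L) through -0.55 to 0.27 (42L4B) with pubertal HFD. Of the 15 tumors, 8 lay above all those without it and 14 above their median. The log2 difference was 0.55 (standard error 0.13, limma, adjusted p = 0.056). The highest values, 0.27 in 42L4B and 0.21 in 60L, came from the only 2 arrays of a scan session of their own. Without both, 6 of 13 tumors lay above all those without pubertal HFD, and without them and M86R the difference was 0.43 (limma, adjusted p = 0.0856).

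This call did not hold on both Adamts10 probes or with slide as a block. The probes had r = -0.01 over tumors, and the other one differed by -0.10. Over the probe mean the difference was 0.22, and with slide as a fixed block 0.36. Epithelial tumors lay on 8 slides, 7 of which carried a single regimen. Adamts10 was called under 8 of 15 alternatives, with adjusted p over all of them from 0.0368 to 0.916. The SAM statistic, the test named in the study's methods, called 8.59% of all genes and 6 of the 40 members, which were Adamts10, Adamts2, Adamts5, Adamts17, Mmp14 and Mmp23, all higher after pubertal HFD.

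Values for these others in limma were 0.95 for Mmp23, an enzyme anchored by its amino terminus, 0.96 for Adamts17, 0.59 for Adamts2, 0.53 for Mmp14 and 0.38 for Adamts5 (adjusted p = 0.113, 0.259, 0.215, 0.197 and 0.125). All 4 Timp genes had positive differences, between 0.28 and 0.50, and the stromelysins Mmp3, Mmp10 and Mmp11 negative ones, between -0.41 and -0.26, without a call in either group. Of 21 matrix substrates Bgn was called (0.95; limma, adjusted p = 0.0507) and of 11 ADAM sheddases Adam22 (0.77; limma, adjusted p = 0.0458). Of the markers, Kdr and Pecam1 of 5 endothelial and Cd68 of 7 macrophage genes were called, with 0.53, 0.60 and 0.64. None of these calls held with slide as a random block, from the scanner software's processed signals or from the authors' matrix. In each of those settings 0 of all 24557 genes were called. The mean over the endothelial list ran from -1.99 to -0.87 without and from -1.64 to 0.81 with pubertal HFD. The value of 0.81 was that of 60L, the array with 22% outlier spots, and the next highest was -0.78 in 62L. The part of the endothelial list in the member values was not tested.

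Between the 4 regimens, the F-test in epithelial tumors called 0 members, against 0.464% of all genes. The smallest p belonged to Adamts10, Adamts5 and Mmp14 (limma, adjusted p = 0.184, 0.241 and 0.243). Adamts10 had means of -1.11 ± 0.32 (SD, n = 8) in LFD, -1.02 ± 0.25 (n = 6) in LFD-HFD, -0.55 ± 0.27 (n = 7) in HFD-LFD and -0.50 ± 0.52 (n = 8) in HFD tumors, or -0.74 in the 6 HFD tumors other than 42L4B and 60L. Mmp14 had -1.10 ± 0.63 (SD, n = 8) in LFD, -0.81 ± 0.61 (n = 6) in LFD-HFD, -0.80 ± 0.49 (n = 6) in HFD-LFD and -0.19 ± 0.33 (n = 8) in HFD tumors, where 40R4A, at -0.94, lay apart from the other 7. In the 6 pairwise contrasts 0 members were called, against 0.00814% of all genes for HFD, 1.03% for HFD-LFD and 0.0244% for LFD-HFD, each against LFD, 0.497% for LFD-HFD against HFD, and 0% in the other two, and the difference of HFD from LFD was 0.91 for Mmp14 (95% interval 0.39 to 1.43; limma, adjusted p = 0.248).

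**Figure D4:**
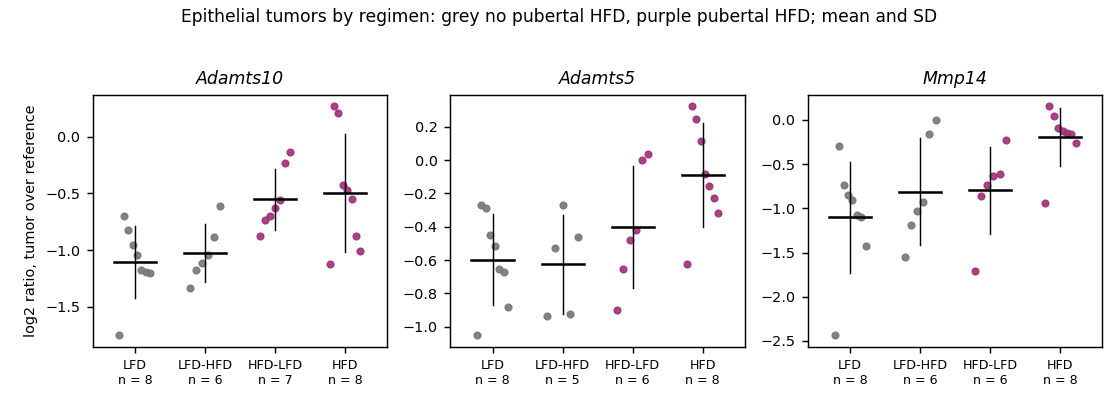
The log2 ratio of tumor over reference (y axis) of the 3 members of smallest p over the regimens, 1 point per epithelial tumor with mean and SD, grey without and purple with pubertal HFD. Adamts10 means are -1.11 and -1.02 without and -0.55 and -0.50 with it, and for Mmp14 40R4A, at -0.94, lies below the other HFD tumors, of which the lowest is at -0.27.

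Whether pubertal HFD went with another difference in spindle cell than in epithelial tumors was tested as an interaction, with 6 spindle cell tumors on each side. Of the 40 members 8 were called at an adjusted p under 0.10, 7 negative and 1 positive, against 11.8% of all genes (9.64% negative, 2.11% positive). Negative were Timp4 (-2.55), Adamts17 (-2.15), Adamts15 (-2.11), Mmp23 (-1.98), neutrophil collagenase Mmp8 (-1.50), Adamts5 (-1.20) and Mmp17 (-0.82), and positive was Adamts3 (0.47), with adjusted p from 0.0189 to 0.0983 in limma. The other Adamts17 probe, with r = 0.12 to the first, gave 0.12 in place of -2.15. Within the spindle cell tumors, Timp4 (-2.05), Adamts15 (-1.88) and Adamts3 (0.50) were called after pubertal HFD, against 4.31% of all genes (limma, adjusted p = 0.0801, 0.071 and 0.0208). The dim Adamts3 probe was well above background on 3 of 6 spindle cell arrays with and 4 of 6 without pubertal HFD. Among epithelial arrays this held for 6 of 29. The Mmp8 probe was well above background on 9 of 12 spindle cell and 21 of 29 epithelial arrays.

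Part of these values depended on 3 arrays. Timp4 was -2.72 to 4.13 in spindle cell tumors without pubertal HFD, with M76R at 4.13, and -3.03 to -2.53 in those with it. Without M32L, M76R and M86R, all 3 from the group without pubertal HFD, the Timp4 mean of that group moved from -0.83 to -2.70, that of Adamts17 from -2.74 to -3.80 and that of Adamts5 from 0.30 to -0.39. The interaction was then -0.69 for Timp4, -0.50 for Adamts5 and -1.10 for Adamts17, whereas it was 0.47 for Adamts3, -1.32 for Mmp8, -0.69 for Mmp17, -1.57 for Adamts15 and -1.36 for Mmp23, closer to the values over all tumors. In that setting, with 3 tumors left in the group, 0 of the 40 members and 0.623% of all genes were called (5 of the 8 at an unadjusted p under 0.05), and 0 members likewise with the processed signals of the scanner software or with the authors' matrix. The mean over 5 adipocyte markers was 3.93 in M76R and 1.43 in M32L, against -4.31 to -3.41 in the spindle cell tumors with pubertal HFD. In the interaction test over all tumors, 4 of 5 adipocyte, 4 of 8 neutrophil, 3 of 8 fibroblast and 3 of 5 endothelial markers were called negative. Among them were Adipoq (-3.40), Camp (-2.03), Lum (-2.44) and Pecam1 (-1.22). Also called negative were 2 of 9 epithelial, 1 of 5 skeletal muscle, 1 of 6 cartilage and bone and 0 of 7 macrophage markers. Of 21 matrix substrates 8 were negative, Lum (-2.44), Col3a1 (-2.30) and Col1a2 (-2.01) most, and of 15 regulators 5, with Serpinb2, an inhibitor of plasminogen activators, at -3.51. The part of the adipocyte and other markers in the protease values was not tested.

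**Figure D5:**
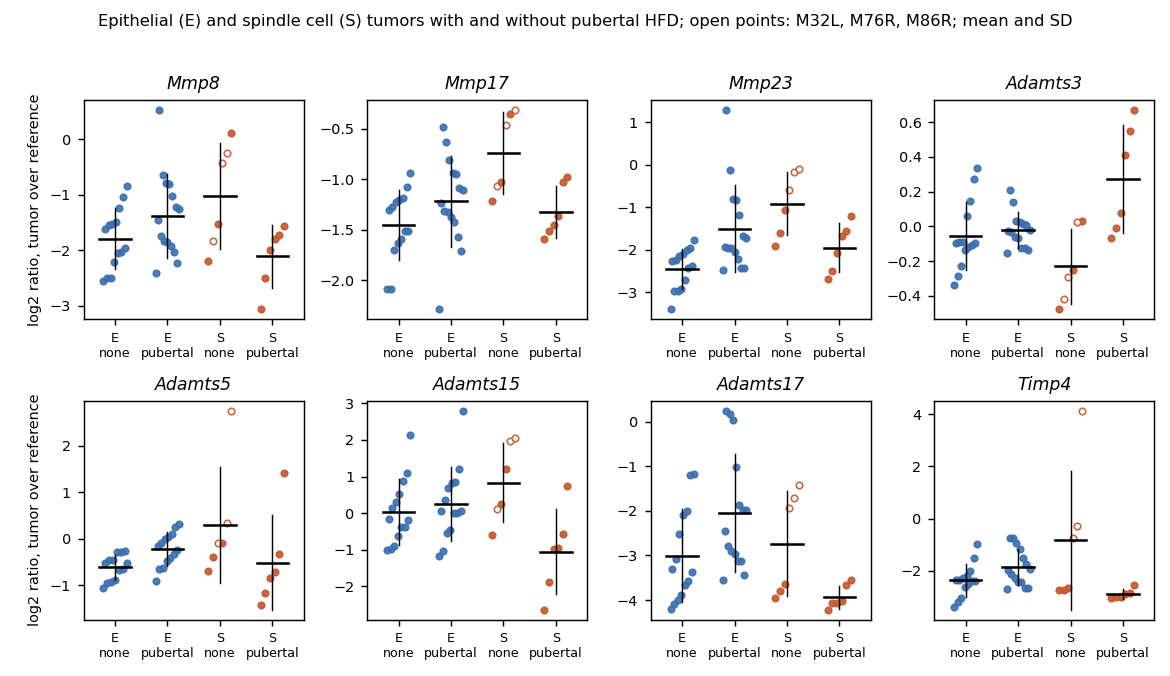
The log2 ratio of tumor over reference (y axis) of the 8 members called in the interaction, for epithelial (E) and spindle cell (S) tumors without (none) and with pubertal HFD, 1 point per tumor with mean and SD. The open points are M32L, M76R and M86R, which hold the 3 highest values of Timp4, Adamts17 and Mmp23 among the spindle cell tumors without pubertal HFD.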

How the data were processed

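The authors deposited, per array, scanner output that holds an intensity per spot, channel and local background, from Agilent Feature Extraction 11.0.1.1 (29 arrays) and 10.5.1.1 (12 spindle cell arrays) per the file headers, where the submitters' processing notes name 8.5.1.1. They also deposited a matrix of log2 ratios, which they had lowess normalized, filtered and imputed. The intensities were background-corrected here by normexp (offset 50) and loess normalized with limma 3.58.1 (R 4.3.3), with outlier spots (1.09% of gene values) left missing. The filter retained the 32125 of 39429 probes that exceeded a signal of 10 in each channel on 80% or more of the arrays. Groups came from the labels. Differences were tested with lmFit and eBayes at an adjusted p of 0.05 for histology and 0.10 otherwise. Regimens were tested with the moderated F over observed values. Correlations used 100000 permutations. The fits were tested on simulated data.

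Named are all members called in any comparison, 16 set members, and the 3 of smallest p where none was called. Members, lists and tests were chosen with earlier results of these data known. Probe positions are of NCBI37 (mm9) as annotated in the files. Promoters are from RefSeq (GRCm38.p6). Alternatives changed the signals, background correction, normalization, filter, probe choice, test, threshold, slide and tumors, or used the authors' matrix. Depth is not defined for arrays, whose number limits precision.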

Additional observations from a re-analysis of the deposited data

Results flagged for a closer look

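Of 31 groups of 4 to 10 tumors looked at for a value far from the rest, 5 held one by Dixon's ratio at its 5% level. That level is not a chance rate here, because members were picked by their results in these data and groups share tumors. The 5 values were Mmp14 in the HFD epithelial tumor 40R4A (-0.94), Adamts5 (2.75) and Timp4 (4.13) in the spindle cell tumor M76R without pubertal HFD, Timp4 in M63L with pubertal HFD (-2.53), and Adamts16 in the late spindle cell tumor M33R (2.24). The label of 40R4A is one of the 3 that differ between the deposited files, and under either label it is an HFD epithelial tumor.

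In limma's interaction test 8 members had another difference with pubertal HFD in spindle cell than in epithelial tumors. On the log2 scale, spindle cell minus epithelial, the difference was -2.55 for Timp4, -2.15 for Adamts17, -2.11 for Adamts15, -1.98 for Mmp23, -1.50 for Mmp8, -1.20 for Adamts5, -0.82 for Mmp17 and 0.47 for Adamts3. Without M32L, M76R and M86R, which leaves 3 tumors in a group, 0 of them were called, and the differences lay between -1.57 (Adamts15) and 0.47 (Adamts3), with -0.69 for Timp4.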

How the results depend on the processing

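For spindle cell against epithelial tumors, where 10 members were called (9 higher, 1 lower; 15.1% of all genes), 18 were called with arrays centered on their median in place of loess (18 higher, 0 lower, with the median of all genes at 0.11 in place of -0.03; 14.7% of all genes), 17 without M32L, M86R and M76R (13 higher, 4 lower; 23.1%), 16 by the SAM statistic (21.7%), 6 with slide as a random block (8.73%) and 5 in late tumors only (9.48%). Timp4 was reversed without M32L, M86R and M76R, at -0.71 in place of 0.25. For pubertal HFD over all tumors 1 member was called without those 3 arrays (0.757% of all genes), in place of 0 (0.00814%). In epithelial tumors, in place of 1, 0 were called from the scanner software's processed signals, over the probe mean, from the authors' matrix, with slide as a random or fixed block, at a threshold of 0.05 and with 1 tumor per shared label number (0% to 1.61% of all genes), 2 without background correction (2.81% of all genes) or without a filter (2.15%), 3 with median centring (16.6%) and 6 by the SAM statistic (8.59%). Over the regimens 1 was called without background correction (2.34% of all genes), in place of 0 (0.464%). For the interaction, in place of 8, 0 were called from processed signals, from the authors' matrix and without M32L, M86R and M76R (0.468% to 0.766% of all genes), 2 without background correction (3.49% of all genes) and 1 with median centring (5.36%). For onset, 0 members were called under all alternatives in epithelial tumors (0% to 0.485% of all genes) and in spindle cell tumors (0%). The causes were not tested. Over the named members and pairs, 1816 values kept their side of the threshold, 36 passed and 73 lost it, and 1 was reversed. A change of sign in a value that passed in neither setting was counted among the 1816. No paired analysis was possible because the replicate numbers are in accession order. Dim probes and the number of tumors limit what small differences can show.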
